A study of Mus musculus with 16 samples.

Results

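The genes described here are the mouse zinc-finger genes whose symbol is Zfp followed by exactly 3 digits, from *Zfp101* upwards. They were found by symbol and not by a measured value, though members and lists were chosen with earlier results of these data known. The symbol rule found 291 genes among the 16010 of the series, of which 287 were in the RNA-seq table, 266 in the m6A table and 262 in both. The RNA-seq libraries came from bone marrow CFU-E cells, the erythroid progenitors that precede proerythroblasts: 3 from control CFU-E and 3 from CFU-E Kit-lo cells labelled as a Mettl3 knockout. For m6A, control CFU-E gave 2 immunoprecipitated (IP) libraries and 2 of their input. The mice were on the C57BL/6 background, of both sexes and 10 to 16 weeks old. The Mettl3-deficient animals were Mettl3 fl/fl EpoR-Cre/-, in which the EpoR-tdTomato-Cre driver also recombines in erythroblastic island macrophages, and the labels call the other group only "Control". CFU-E were sorted as lineage-negative, Kit+ CD71+ cells without CD16/32, CD41, CD34 or Sca1. The Kit-lo gate was applied to the Mettl3-deficient cells only, so genotype and Kit gate cannot be told apart. The series has no sample of control Kit-lo cells, and its 6 proerythroblast samples were not analysed here. Nothing in the labels says that libraries of a group came from separate animals, so p-values measure the spread between these libraries.

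Most proteins of this family bind DNA through arrays of C2H2 fingers, each a short loop that holds a zinc ion between a pair of cysteines and a pair of histidines. Many carry a KRAB domain at their amino terminus, which recruits the corepressor Trim28 and with it the histone methyltransferase Setdb1, and such proteins are best known for silencing transposable elements. m6A is a methyl mark on adenosines of mRNA, laid down by a complex whose catalytic subunit is Mettl3, in a short context for which the 5 bases GGACT and AAACC both qualify. In most mRNAs the mark is densest in long internal exons, near the stop codon and in the last exon, and *Zfp* genes commonly hold all their fingers in a single long last exon.

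By the annotation of GRCm38, 287 of the 291 genes were protein coding and 4 were pseudogenes. The translated proteins held a median of 10 fingers, from 0 to 37, with the most in *Zfp142*. The KRAB pattern was found in 144 and the SCAN pattern, a dimerization domain, in 8. These patterns were strict, so a diverged domain is missed and the count of KRAB genes is a lower estimate. The largest groups lay on chromosome 7 with 73 genes, of which 32 had the KRAB pattern, and on chromosome 17 with 32 genes, of which 26 had it. The median transcript was 3198 bases long against 2815 for all other genes, and the median last exon 2436 bases against 1211.

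The fingers of an array are joined by a conserved linker of the amino acids TGEKP or TGERP, which was found 1362 times in 229 of the genes. Its codons can spell AAACC, where lysine is written AAA before the CC of the proline codon, and 774 linkers (56.8%) did. These made up 41.3% of the 1872 AAACC matches in the family's coding sequences. In KRAB genes 67.5% of 973 linkers held AAACC, and in the other genes 30.1% of 389. Over whole transcripts, searched on the sense strand, the median density of AAACC was 2.06 per kb in the family and 0.952 per kb in other genes, and it reached 3.59 per kb in the KRAB genes. At least 1 AAACC was found in 96.9% of the family's transcripts and in 85.2% of the others. GGACT, which cannot overlap AAACC, went the other way, with 0.784 per kb in the family and 1.03 per kb elsewhere, and was found in 85.6% and 88.4% of transcripts. A match is a description of the letters and not a mapped site. The first linker of some of the genes that results below turn on is shown for comparison. Each is printed with the histidine codon before its threonine and the codon after its proline, and AAACC is in capitals where present. All are coding and were read from GRCm38 with the GENCODE M21 annotation, 5′ to 3′ on the strand of the gene.
Zfp709, chr8:71889551-71889571, plus strand: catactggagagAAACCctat
Zfp948, chr17:21587253-21587273, plus strand: catactggtgagAAACCctac
Zfp871, chr17:32775453-32775473, minus strand: cacacgggggagAAACCgtac
Zfp961, chr8:71968470-71968490, plus strand: cacactggggagAAACCtttt
Zfp146, chr7:30162316-30162336, minus strand: cacactggagagAAACCtttt
Zfp110, chr7:12849554-12849574, plus strand: cacacaggagagcggccatat
Zfp263, chr16:3749188-3749208, plus strand: cacacaggggaaaagcccttc
Zfp771, chr7:127253916-127253936, plus strand: cacacgggcgagcgtcccttt
Zfp358, chr8:3496281-3496301, plus strand: cacacaggcgagcgtccctac
Zfp787, chr7:6132969-6132989, minus strand: cacacaggcgagcggcccaat
*Zfp709*, *Zfp948*, *Zfp871*, *Zfp961*, *Zfp146*, *Zfp110* and *Zfp263* were higher in IP, and *Zfp771*, *Zfp358* and *Zfp787* lower. *Zfp709* held AAACC in 8 of its 9 linkers, while *Zfp771* held it in 0 of 7 and *Zfp787* in 0 of 3. *Zfp110*, with 0 of 2, shows that enrichment in IP was also measured without AAACC in a linker. The same holds for *Zfp652*, not printed here, with 0 of 2. *Zfp263* held AAACC in 2 of 6 linkers and *Zfp626*, higher in IP and not printed, in 2 of 3, though not in the first.

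Totals were 17429262 to 21329242 counts in the 6 RNA-seq libraries, 23160909 and 19421059 in the input and 37142742 and 20085663 in the IP libraries, so that IP library 1 was the deepest. *Mettl3* itself was at 115, 123 and 130 CPM (read counts per library total, scaled by TMM) in control, and the libraries labelled Mettl3-deficient overlapped with it at 117, 127 and 108 CPM. Counts over a whole gene do not resolve its floxed part and so do not check the labels, on which every direction given here for these libraries rests. *Kit* was at 544 to 629 CPM in control and 44.0 to 68.5 CPM in the Kit-lo libraries. The summed CPM of 8 erythroid markers was 2639 to 2757 in control and 3562 to 3857 in the Kit-lo libraries, with all 8 above 1 CPM in both. Summed early progenitor markers were at 33.5 to 38.0 and 2.08 to 2.86 CPM, where 3 of 6 were in the table and only 1 of those was above 1 CPM in either group, and summed granulocyte markers at 25.5 to 37.8 and 16.02 to 24.0 CPM over 8 genes. The 7 macrophage markers summed to 7.61 to 11.1 and 7.32 to 13.6 CPM. The part of these shifts in the results below was not tested.

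The family was expressed at low levels. It took 0.602% to 0.620% of the counts in control, 0.570% to 0.657% in the libraries labelled Mettl3-deficient, 0.302% and 0.330% in input and 0.339% and 0.416% in IP. Per kb of transcript, the median member stood at 2.78 CPM per kb in control CFU-E and the median gene tested at 7.54. The count filter passed 264 genes of the family in the RNA-seq fit and 247 for IP over input. The 23 and 19 that did not pass had a mean of at most 0.477 and 0.548 CPM, and none of the 291 was at 0 in every library of a table that listed it. Counts of near-identical family members can be split between them: 196 of the 291 had at least 90% of their 31-base words in no other gene, and 24 had under 50%, of which most lie in clusters on chromosomes 2 and 4. Values of those 24 are uncertain.

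The 5 genes with the highest level per length in control CFU-E were *Zfp207*, a microtubule-binding protein of the spindle, at 296 CPM per kb, *Zfp637* at 126, *Zfp706* at 58.3, *Zfp410* at 54.5 and *Zfp330* at 54.0 CPM per kb. *Zfp410*, known as an activator of the remodeller gene *Chd4*, was at 143, 134 and 147 CPM in control and 166, 190 and 154 CPM in those labelled Mettl3-deficient (log2 fold change 0.26 ± 0.10 SE, adjusted p = 0.061), and *Chd4* differed by -0.01 on the log2 scale. *Zfp207* was at 480, 428 and 477 CPM against 382, 413 and 356 CPM, and did not reach the fold of 1.5 needed for a call (log2 fold change -0.27 ± 0.08, adjusted p = 0.032). The groups did not overlap for either gene, *Zfp410* lying higher and *Zfp207* lower. *Zfp706*, *Zfp330* and *Zfp637* lay at log2 fold changes of -0.22, -0.39 and -0.17, also short of that fold.

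To ask whether the family carried m6A in control CFU-E, IP was compared with input. The median log2 fold change of the family lay above 0, and close to that of other genes of like level. In edgeR's quasi-likelihood fit, with p-values adjusted by Benjamini-Hochberg over all genes, 24 of 247 were higher in IP (9.72%, against 7.9% of the 11447 genes tested) and 11 were lower (4.45%, against 7.86%). With upper-quartile factors in place of TMM the split was 36 and 9. The log2 fold change was above 0 for 167, and its median was 0.26 against 0.06 for all genes. Lowly expressed genes as a whole lay higher in IP. Other genes at the same decile of average log2 CPM as each member had a median of 0.25, and the median difference of a member from them was 0.06. Taking other genes of the same decile of transcript length instead left 0.09. IP and input did not overlap for 155 of the 247 (62.8%, against 60.9% of all genes tested). The median difference from genes of like level was 0.01 without input library 1 and 0.10 without input library 2.

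**Figure D1:**
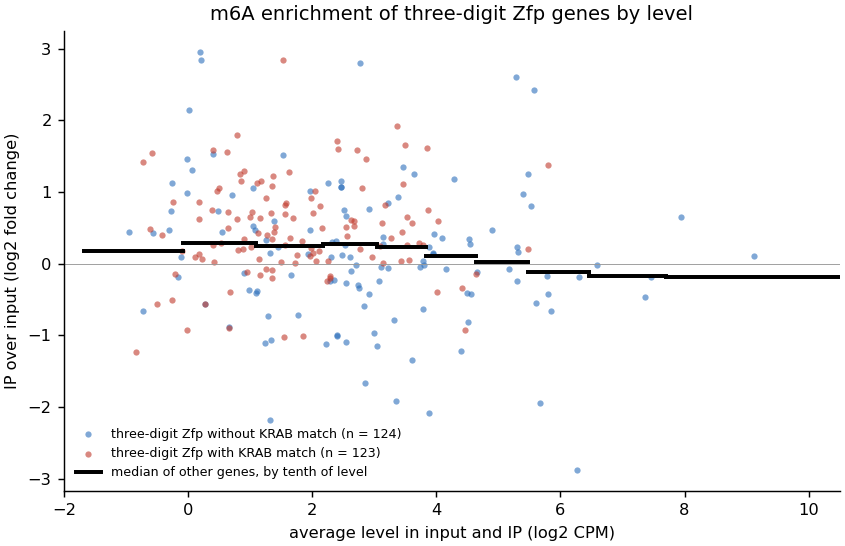
IP over input (log2 fold change, vertical axis) against average level (log2 CPM, horizontal axis) for the 247 three-digit *Zfp* genes tested, each point 1 gene, red for the 123 with a KRAB match and blue for the 124 without. Black bars are the median of all other genes in each decile of level, and they run from 0.29 in the second lowest decile to -0.18 in the highest.

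By their median, KRAB genes lay higher in IP than the rest of the family. Of 123 tested, 11 were called higher in IP (8.94%, against 7.9% of all genes tested). Only *Zfp688* was called lower (0.813%, against 7.86%). Their median log2 fold change was 0.42, with 101 above 0, and lay 0.19 above other genes of like level and 0.31 above other genes of like length. Of the 120 genes with fingers and no KRAB match, 13 were higher (10.8%) and 10 lower (8.33%). Their median was 0.12 and the difference from genes of like level was -0.06. The share of counts in KRAB genes was 0.0536% and 0.0529% in input and 0.0936% and 0.0709% in IP, so both IP libraries stood above both input libraries, and IP library 1 stood farther. Without IP library 1 the KRAB median was 0.24, while its difference from genes of like level stayed at 0.18. By linkers, the 116 genes with 5 or more had a median of 0.39 (11 higher, 1 lower), the 82 with 1 to 4 a median of 0.25 (11 higher, 4 lower), and the 49 without a linker a median of -0.07 (2 higher, 6 lower), which becomes 0.08 with library size as the only scaling and then stands 0.13 below the median of all genes. The median difference from other genes of like level was 0.13 in both groups with linkers and -0.17 in the genes without. Among genes with linkers, 15 of the 138 with AAACC in at least 1 linker were higher in IP (10.9%). By edgeR 0 of them were lower, with 3 lower at an unadjusted p under 0.05 and 1 by DESeq2. Of the 60 with AAACC in none, 7 were higher (11.7%) and 5 lower (8.33%). The shares called higher were thus close, beside 7.9% higher and 7.86% lower of all genes tested. The medians of these groups, with and without AAACC in a linker, were 0.41 and 0.15. These groups hold many of the same genes and differ in level, and no difference between them was tested.

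**Figure D2:**
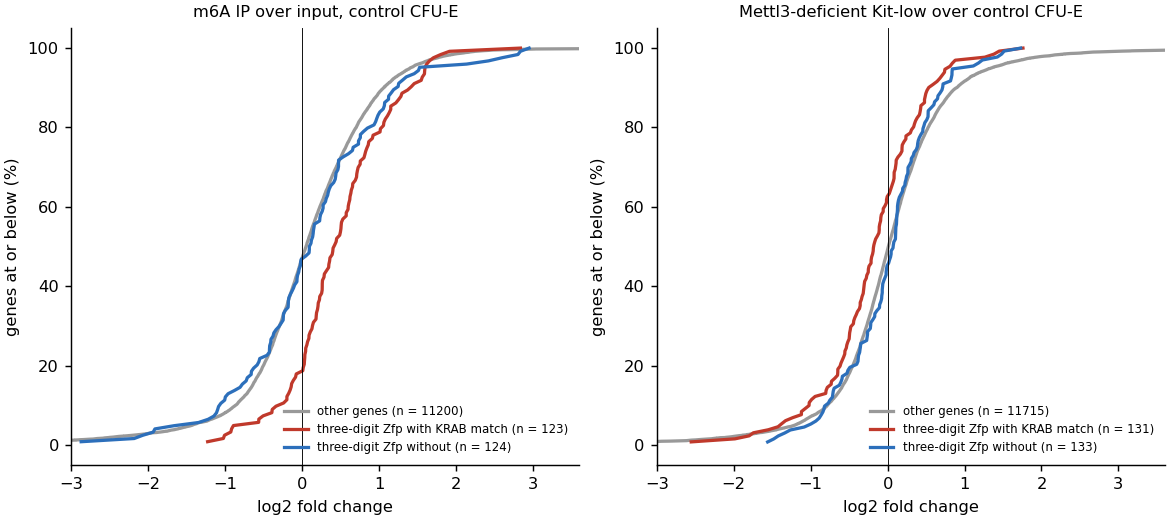
Cumulative share of genes (percent, vertical axis) by log2 fold change (horizontal axis) in IP over input (left) and in the libraries labelled Mettl3-deficient Kit-lo over control (right). Red is three-digit *Zfp* genes with a KRAB match, blue those without, and grey all other genes tested. Over most of its range the red curve lies to the right of the others in IP over input and to the left in the RNA-seq comparison, with medians of 0.42 and -0.18.

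Families named in a similar way gave the following values in the same fit. The 46 *Zfp* genes with 1 or 2 digits had a median of 0.48 with 6 higher and 1 lower, the 21 with a letter after the digits 0.79 with 2 and 1, and the 34 *Zbtb* genes, which carry a BTB in place of a KRAB domain, 0.23 with 6 and 3. All other genes with KRAB and fingers numbered 79 and had a median of 0.25, with 5 higher (6.33%) and 0 lower by edgeR. At an unadjusted p under 0.05, 3 of them were lower, and 1 was by DESeq2. Against other genes of like level, the median differences of these 4 groups were 0.23, 0.56, 0.03 and 0.0065 in that order. That of the three-digit genes was 0.06, and that of their KRAB genes 0.19.

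Among genes higher in IP, *Zfp146*, a protein made of fingers with little else, was at 1.72 and 1.57 CPM in input and 14.7 and 8.24 CPM in IP, a log2 fold change of 2.80 ± 0.38 (adjusted p = 0.000821). *Zfp263* was at 11.7 and 10.1 CPM in input and 92.5 and 39.6 CPM in IP (2.60 ± 0.38, adjusted p = 0.00121). *Zfp652*, a repressor that works with proteins of the Cbfa2t family, was at 16.4 and 13.3 CPM in input and 115 and 44.2 CPM in IP (2.42 ± 0.40, adjusted p = 0.00276). All 3 stood clear of input in both IP libraries, with library 1 of IP above library 2 each time. *Zfp652* overlaps a gene on the other strand over 19.3% of its exons and, as the strand used in counting is not stated, their reads cannot be told apart. *Zfp110* was at 3.88 and 4.67 CPM in input and 18.5 and 13.6 CPM in IP (1.91 ± 0.30, adjusted p = 0.00223). *Zfp871* was at 5.03 and 5.73 CPM in input and 17.4 and 16.4 CPM in IP (1.65 ± 0.28, adjusted p = 0.00299). These and the next 3 have the KRAB pattern. *Zfp709* was at 2.16 and 2.64 CPM in input and 8.27 and 7.34 CPM in IP (1.71 ± 0.33, adjusted p = 0.00674). *Zfp626* was at 5.78 and 8.21 CPM in input and 24.7 and 18.0 CPM in IP (1.62 ± 0.30, adjusted p = 0.00574). *Zfp961*, which lies close to *Zfp709* on chromosome 8, was at 2.25 and 2.92 CPM in input and 10.7 and 4.72 CPM in IP (1.60 ± 0.42, adjusted p = 0.0302). IP and input did not overlap in any of these 8, which was a condition of their choice. Without input library 1 the adjusted p was 0.080 for *Zfp709*, 0.077 for *Zfp626* and 0.18 for *Zfp961*, and without IP library 1 it was 0.22 for *Zfp961*, whose log2 fold change was then 0.86.

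Among genes lower in IP, *Zfp622*, a factor in maturation of the large ribosomal subunit, was at 143 and 130 CPM in input and 24.0 and 13.02 CPM in IP, a log2 fold change of -2.87 ± 0.30 (adjusted p = 0.000153). *Zfp787* was at 27.4 and 20.4 CPM in input and 4.84 and 6.58 CPM in IP (-2.07 ± 0.30, adjusted p = 0.00119). *Zfp771* was at 82.9 and 79.3 CPM in input and 24.5 and 17.7 CPM in IP (-1.94 ± 0.25, adjusted p = 0.000585). None of the 8 genes described here has the KRAB pattern, and 4 of them have no linker. *Zfp358* was at 20.6 and 11.5 CPM in input and 5.42 and 2.96 CPM in IP (-1.91 ± 0.38, adjusted p = 0.00845). *Zfp746*, which encodes the parkin-interacting repressor PARIS, was at 11.8 and 9.95 CPM in input and 3.88 and 2.91 CPM in IP (-1.67 ± 0.31, adjusted p = 0.00575). *Zfp326*, a subunit of the DBIRD complex that links transcription to splicing, was at 28.4 and 30.5 CPM in input and 12.4 and 12.8 CPM in IP (-1.22 ± 0.25, adjusted p = 0.00853). In all of these both IP libraries stood below both input libraries, which was a condition of their choice. *Zfp362* (-1.15 ± 0.35, adjusted p = 0.0487) and *Zfp653* (-1.12 ± 0.34, adjusted p = 0.0492) lay just inside the threshold. Without input library 1 the adjusted p was 0.078 for *Zfp358*, 0.25 for *Zfp362* and 0.30 for *Zfp653*. *Zfp362* was also lost without IP library 1 (adjusted p = 0.18), and *Zfp653* without any 1 library, at 0.054, 0.085 and 0.060 without IP library 1, IP library 2 and input library 2.

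**Figure D3:**
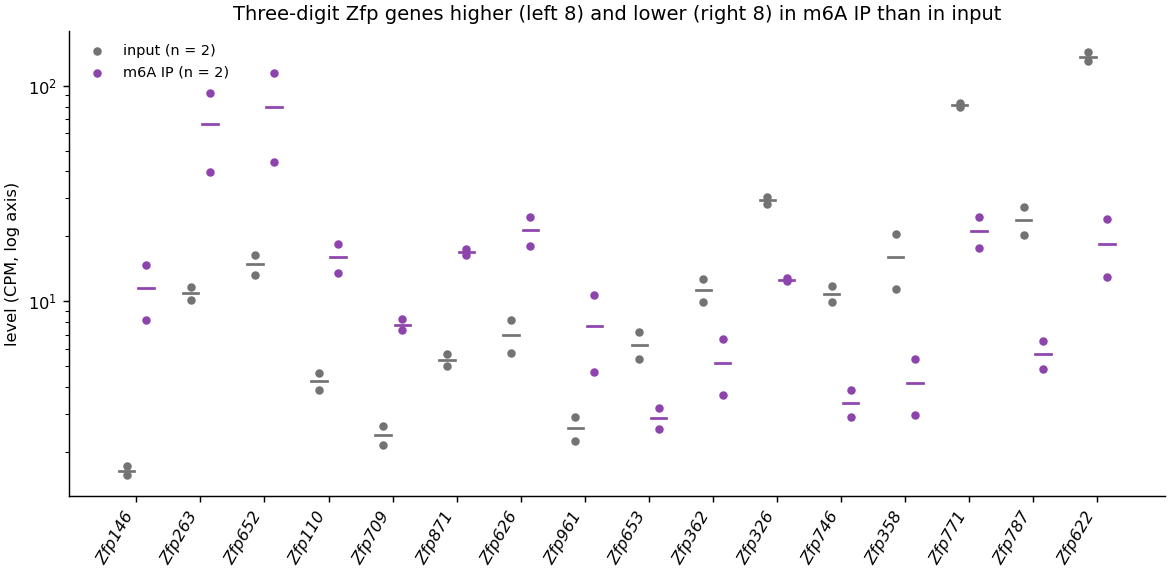
Level (CPM, logarithmic vertical axis) in the 2 input (grey) and 2 IP (purple) libraries of control CFU-E for 16 three-digit *Zfp* genes. Only genes with a minimum average log2 CPM of 2 and no overlap of the groups were eligible. Drawn are the 8 highest and 8 lowest of these in IP, from *Zfp146* at a log2 fold change of 2.80 to *Zfp622* at -2.87. Called genes outside these limits reached 2.95. Points are libraries and short lines are group means, and the groups do not overlap for any of the 16.

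Of the remaining calls, 11 genes were higher in IP by 1.07 to 2.95 on the log2 scale and 3 lower, by -0.93 to -2.18. They include the KRAB genes *Zfp120*, *Zfp141*, *Zfp317*, *Zfp445* and *Zfp719*, and on the lower side *Zfp507*, *Zfp513* and *Zfp688*. *Zfp410* was at 36.8 and 30.4 CPM in input and 65.3 and 51.6 CPM in IP (0.80 ± 0.24, adjusted p = 0.0494), and lost its call without IP library 1 (adjusted p = 0.23), input library 1 (0.16) or input library 2 (0.30). How firmly these lists hold rests on 2 libraries a group: 5 of the 24 higher and 5 of the 11 lower genes kept their call in every fit that left out a library. The counts without input library 1 were 7 higher and 5 lower, without IP library 1 13 and 13, and without IP library 2 40 and 10, while the same fits called 164 and 427, 433 and 740, and 1358 and 968 of all genes.

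To ask how the family stood without Mettl3, the Kit-lo libraries labelled Mettl3-deficient were compared with control CFU-E. Genes of the family changed in both directions. By edgeR's quasi-likelihood test, at a fold of at least 1.5 and an adjusted p under 0.05, 19 of 264 were higher (7.20%, against 12.1% of the 11979 genes tested) and 24 lower (9.09%, against 9.83%). The groups did not overlap for 100 (37.9%, against 47.5%). The median log2 fold change was -0.05 against 0.01 for all genes, and its sign turned with library size as the only scaling (0.0033, against 0.06 for all genes) and without Kit-lo library 3 (0.04, against 0.01). The median difference from other genes of like level was -0.08, and 0.0061 without that library. Fits without 1 library left 13 to 22 higher and 17 to 23 lower, and 12 of the 19 and 11 of the 24 kept their call in all 6.

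By their median, KRAB genes lay lower than the rest. Of 131 tested, 7 rose (5.34%, against 12.1% of all genes tested) and 12 fell (9.16%, against 9.83%). A log2 fold change above 0 was found for 49, and the median was -0.18, or 0.21 below other genes of like level. It was -0.05 without Kit-lo library 3, 0.10 below genes of like level. As a share of counts, KRAB genes took 0.205%, 0.201% and 0.202% in control and 0.193%, 0.220% and 0.179% in the Kit-lo libraries. The groups overlapped by that measure, with Kit-lo library 2 above every control library. Of the 125 genes with fingers and no KRAB match, 12 rose, 11 fell and the median was 0.08. The 126 genes with 5 or more linkers had a median of -0.25 with 6 higher and 12 lower, and the 51 without a linker 0.11 with 5 and 4. Of the 8 chromosomes for which medians were taken (2, 4, 6, 7, 8, 9, 13 and 17), chromosome 2 had the lowest, -0.49 over 19 genes tested, with 1 higher and 3 lower, but much of that cluster shares sequence. The 70 on chromosome 7 had a median of 0.02 with 7 higher and 6 lower. For comparison, the 44 *Zfp* genes of 1 or 2 digits had a median of -0.20 (2 higher, 7 lower), the 84 other genes with KRAB and fingers -0.20 (2 higher, 13 lower), and the 36 *Zbtb* genes 0.39 (9 higher, 2 lower). The differences between these groups were not tested, and the summed erythroid and early progenitor markers moved between the same libraries.

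Of the 19 genes that rose, 12 had fingers and no KRAB match. *Zfp341*, a transactivator of the *Stat3* gene, was at 3.74, 4.35 and 2.40 CPM in control and 13.6, 11.9 and 9.34 CPM in those labelled Mettl3-deficient, a log2 fold change of 1.73 ± 0.28 (adjusted p = 0.0011). *Zfp526* was at 3.69, 2.34 and 2.58 CPM against 11.5, 7.09 and 6.15 CPM (1.52 ± 0.33, adjusted p = 0.00553). *Zfp574*, which lies near *Zfp526* on chromosome 7, was at 27.3, 30.4 and 32.1 CPM against 52.0, 57.3 and 51.5 CPM (0.84 ± 0.12, adjusted p = 0.000477). In each of these every Kit-lo library stood above every control library, which was a condition of their choice. *Zfp296*, a regulator of the pluripotency network, was at 5.84, 6.18 and 6.35 CPM against 13.7, 8.40 and 21.1 CPM (1.23 ± 0.31, adjusted p = 0.0113). *Zfp687*, a partner of *Zfp592* and Zmynd8 in a transcriptional complex, was at 17.5, 13.4 and 11.7 CPM against 26.6, 24.3 and 25.3 CPM (0.84 ± 0.18, adjusted p = 0.00458). *Zfp296* and *Zfp341* overlap a gene on the other strand over 12.9% and 11.8% of their exons. The KRAB gene *Zfp316* was at 2.39, 3.55 and 3.03 CPM against 6.96, 9.66 and 6.73 CPM (1.38 ± 0.29, adjusted p = 0.00441), again without overlap. *Zfp667*, also a KRAB gene, was at 6.80, 4.52 and 5.38 CPM against 8.21, 11.8 and 9.96 CPM (0.84 ± 0.25, adjusted p = 0.0257). Its adjusted p was 0.082 without Kit-lo library 2, 0.092 without control library 2 and 0.087 without control library 3.

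Among the genes that fell, the KRAB gene *Zfp661* was at 10.3, 12.5 and 8.59 CPM in control and 2.39, 3.54 and 1.98 CPM in those labelled Mettl3-deficient, a log2 fold change of -1.99 ± 0.30 (adjusted p = 0.000657). *Zfp386* was at 27.8, 33.3 and 30.7 CPM against 12.99, 9.03 and 9.34 CPM (-1.55 ± 0.18, adjusted p = 0.000149). *Zfp566* was at 17.9, 15.1 and 17.3 CPM against 7.06, 7.28 and 8.76 CPM (-1.12 ± 0.18, adjusted p = 0.00116). All 3 are KRAB genes with a wide gap between the groups. *Zfp783*, annotated as a transcribed pseudogene and listed in the RNA-seq table only, was at 44.2, 35.5 and 36.5 CPM against 15.5, 15.2 and 15.3 CPM (-1.34 ± 0.14, adjusted p = 7.49e-05). *Zfp956* was at 38.8, 30.3 and 28.6 CPM against 16.5, 13.3 and 10.9 CPM (-1.27 ± 0.19, adjusted p = 0.000727). These neighbours overlap on the same strand of chromosome 6, *Zfp783* at chr6:47943171-47955913 and *Zfp956* at chr6:47953390-47965300, so they are not independent of each other. *Zfp277*, which takes part in silencing of the *Cdkn2a* locus, was at 6.70, 6.58 and 5.38 CPM against 2.70, 2.86 and 3.23 CPM (-1.08 ± 0.27, adjusted p = 0.012). *Zfp831* was at 3.59, 10.4 and 7.50 CPM against 3.12, 1.70 and 2.87 CPM (-1.48 ± 0.42, adjusted p = 0.0206). Its control values spread widely and its lowest control library came near its highest Kit-lo library. The adjusted p of *Zfp831* was 0.099 without control library 2, 0.069 without control library 3 and 0.077 without Kit-lo library 2. *Zfp991*, with 12.03% of its sequence found in no other gene and so uncertain, was at 23.9, 21.3 and 19.7 CPM against 12.3, 14.7 and 6.78 CPM (-0.94 ± 0.26, adjusted p = 0.017), and at an adjusted p of 0.068 without control library 1.

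**Figure D4:**
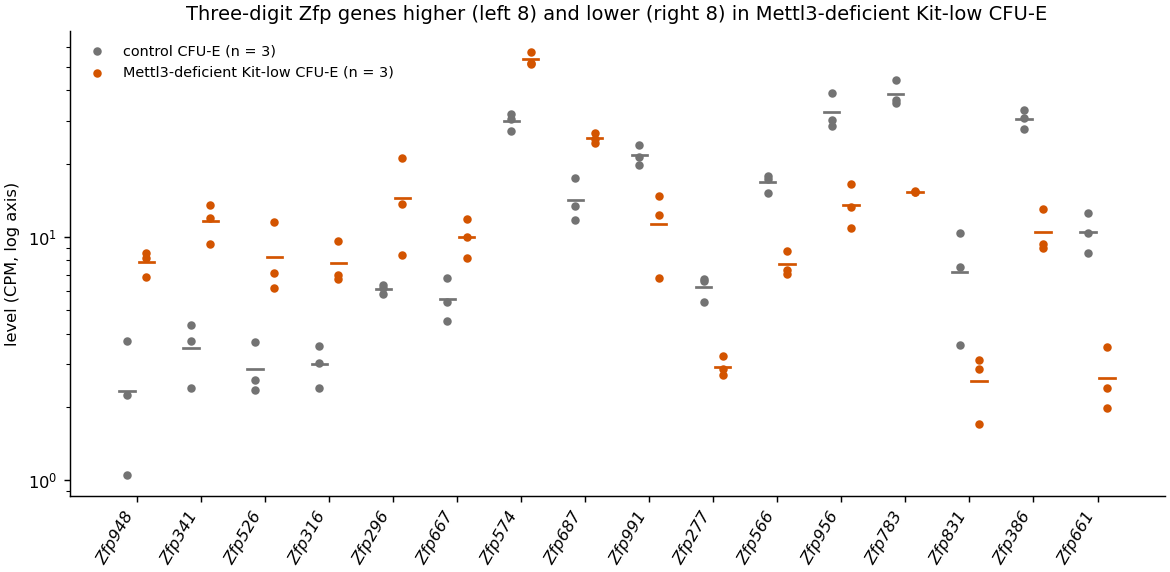
Level (CPM, logarithmic vertical axis) in 3 control CFU-E libraries (grey) and 3 Kit-lo libraries labelled Mettl3-deficient (orange) for 16 three-digit *Zfp* genes. Only genes with a minimum average log2 CPM of 2 and no overlap of the groups were eligible. Drawn are the 8 of these that rose most and the 8 that fell most, from *Zfp948* at a log2 fold change of 1.76 to *Zfp661* at -1.99. Called genes outside these limits reached -2.55. Points are libraries and short lines are group means, and the groups do not overlap for any of the 16.

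Of the remaining calls, 10 rose by 0.59 to 1.43 on the log2 scale and 14 fell, with log2 fold changes of -0.61 to -2.55. The KRAB genes among them were *Zfp426*, *Zfp808*, *Zfp953* and *Zfp963*, which rose, and *Zfp160*, *Zfp182*, *Zfp820*, *Zfp943*, *Zfp946* and *Zfp971*, which fell.

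Enrichment in IP was next set beside the change in the libraries labelled Mettl3-deficient. Over the 242 genes tested in both, Spearman's rho between the log2 fold changes was -0.04, given as a description, since genes are not independent replicates. Of the 23 genes higher in IP and tested in both, 2 rose and 2 fell with a median RNA log2 fold change of -0.01, and of the 11 lower in IP, 0 rose and 0 fell, by edgeR, by DESeq2 or at an unadjusted p under 0.05, with a median of 0.12. Among all genes higher in IP, 864 in number, 10.3% rose and 10.2% fell, and among the 833 lower in IP, 17.3% rose and 9.96% fell, with a median of 0.09. The 4 genes called in both experiments went both ways. *Zfp948*, a KRAB gene at chr17:21567008-21588699, was at 0.794 and 0.506 CPM in input and 6.86 and 2.46 CPM in IP (log2 fold change 2.84 ± 0.56, adjusted p = 0.00813 by edgeR), and rose from 1.05, 2.23 and 3.72 CPM in control to 8.57, 6.85 and 8.19 CPM (1.76 ± 0.41, adjusted p = 0.0079). Without IP library 1 its enrichment was 1.88 with an adjusted p of 0.065. *Zfp710* was at 5.16 and 9.44 CPM in input and 16.4 and 18.1 CPM in IP (1.25 ± 0.33, adjusted p = 0.0285), and at 7.42, 7.89 and 5.73 CPM in control against 12.4, 9.47 and 12.8 CPM (0.72 ± 0.22, adjusted p = 0.0316). Its call in the RNA-seq was lost in 5 of the 6 fits without a library (all but the one without Kit-lo library 2, adjusted p up to 0.12), and its enrichment without input library 1 (adjusted p = 0.25). *Zfp110*, higher in IP, fell from 85.0, 81.2 and 88.1 CPM to 51.9, 53.7 and 63.5 CPM (-0.59 ± 0.11, adjusted p = 0.00226). Its fold lay at the threshold of 1.5 and was under it without Kit-lo library 1, Kit-lo library 2 or control library 3, at log2 fold changes of -0.54, -0.53 and -0.57. *Zfp961*, also higher in IP, fell from 78.7, 63.5 and 62.2 CPM to 40.7, 50.1 and 32.4 CPM (-0.73 ± 0.17, adjusted p = 0.00702), and to a log2 fold change of -0.57, under the fold threshold, without Kit-lo library 3.

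**Figure D5:**
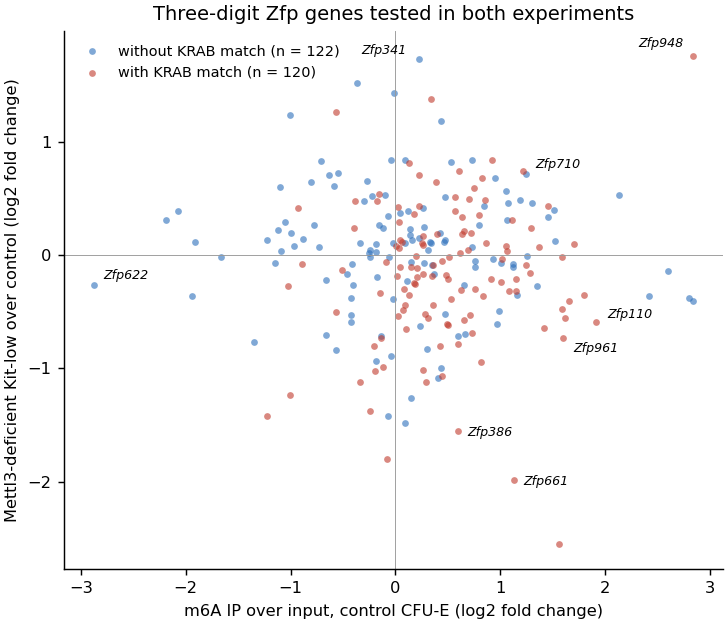
Log2 fold change of the Kit-lo libraries labelled Mettl3-deficient over control (vertical axis) against log2 fold change of IP over input in control CFU-E (horizontal axis), 1 point for each of the 242 three-digit *Zfp* genes tested in both, red with and blue without a KRAB match. The points form a cloud with Spearman's rho of -0.04, and *Zfp948* stands alone at 2.84 and 1.76.

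The 22 genes with well-known roles were described whatever their values. In IP over input, *Zfp367* and *Zfp407* were called higher and *Zfp326* and *Zfp622* lower, beside 7.9% and 7.86% of all genes tested. None of the list was called in the RNA-seq, beside 12.1% of all genes tested called higher and 9.83% lower. *Zfp217*, a corepressor subunit known to bind Mettl3, was at 3.53 and 2.25 CPM in input and 7.05 and 5.58 CPM in IP (log2 fold change 1.12 ± 0.36, adjusted p = 0.0555) and at 6.94, 5.95 and 6.58 CPM in control against 6.70, 7.19 and 4.59 CPM (-0.08 ± 0.26, adjusted p = 0.855). *Zfp148*, a partner of Gata1 in erythroid cells, was at 51.8, 44.0 and 49.8 CPM against 53.0, 64.8 and 44.1 CPM (0.15 ± 0.15, adjusted p = 0.477), which overlapped. Neither was called in either comparison, but *Zfp217* passed the m6A test without IP library 2 (adjusted p = 0.034), with upper-quartile factors (0.024) and with a replicate block (0.013). *Zfp367*, a cell cycle transcription factor with a known role in erythroid cells, was higher in IP at 29.4 and 24.1 CPM against 10.9 and 12.6 CPM in input (1.19 ± 0.26, adjusted p = 0.0131, and 0.14 without input library 1). It differed by 0.48 in the RNA-seq (adjusted p = 0.107), and by 0.69 without Kit-lo library 1, where it passed the test (adjusted p = 0.0081). *Zfp407* was higher in IP by 1.16 (adjusted p = 0.0494), and not without IP library 2 (0.11) or input library 1 (0.32). *Zfp281*, a regulator of pluripotency, was at 25.6, 33.2 and 21.1 CPM in control and 16.6, 42.7 and 39.6 CPM in those labelled Mettl3-deficient (0.31 ± 0.31, adjusted p = 0.494), and passed the test without Kit-lo library 1, at 0.62 (adjusted p = 0.028). *Zfp346*, which binds double-stranded RNA, was at 45.4, 48.7 and 54.1 CPM against 36.1, 37.3 and 30.1 CPM (-0.52 ± 0.13, adjusted p = 0.012), short of the fold threshold. Retroviral silencing is the known role of *Zfp809*, which acts on proviral sequence through Trim28, and it was at 24.7, 21.6 and 23.8 CPM against 33.0, 27.9 and 25.1 CPM (0.29 ± 0.15, adjusted p = 0.157). *Zfp568*, a KRAB repressor of a placental promoter of *Igf2*, differed by 0.35 (adjusted p = 0.11), and *Zfp598*, a ubiquitin ligase at collided ribosomes, by 0.41 (adjusted p = 0.0839). *Zfp451*, a SUMO ligase, differed by 0.43 (adjusted p = 0.0449), short of the fold threshold. The rest of this list, *Zfp106*, *Zfp131*, *Zfp143*, *Zfp292*, *Zfp318*, *Zfp335*, *Zfp384*, *Zfp638* and *Zfp644*, passed neither test as fitted. In IP over input *Zfp143* passed without IP library 2 (adjusted p = 0.023) and with a replicate block (0.047), and *Zfp335*, lower in IP, with DESeq2 (0.026), DESeq2's size factors (0.038) and a replicate block (0.016).

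The corepressor genes through which KRAB proteins act were taken from a list of which 21 were tested. In the libraries labelled Mettl3-deficient, *Trim28*, the corepressor that binds KRAB, fell from 71.4, 93.5 and 82.4 CPM to 38.8, 44.9 and 49.5 CPM (log2 fold change -0.89 ± 0.14, adjusted p = 0.000701 by edgeR). *Hdac2*, a histone deacetylase, fell by 1.02, and *Chd3*, a remodeller of the NuRD complex, rose by 1.21. The 2 that fell made up 9.52% of the 21, against 9.83% of all genes tested. *Chd3*, the 1 that rose, made up 4.76%, against 12.1%. The other 18 were not called, *Setdb1* among them at 0.54 (adjusted p = 0.0098), short of the fold threshold. In IP over input, *Atf7ip*, the partner of Setdb1, was at 27.2 and 28.2 CPM in input and 117 and 103 CPM in IP (1.99 ± 0.23). *Cbx3* (1.92) and *Cbx5* (0.81), which encode heterochromatin proteins, were also higher in IP, and *Hdac2* (-2.72) and *Hdac1* (-0.72) were lower, with 16 not called. Those higher made up 14.3% of the 21, against 7.9% of all genes tested, and those lower 9.52%, against 7.86%. *Trim28* itself was at 53.3 and 44.1 CPM in input and 66.9 and 57.5 CPM in IP (0.35 ± 0.23, adjusted p = 0.318).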

How the data were processed

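Of the 16 samples of the series, 10 had values. In either experiment the authors cleaned reads by fastp 0.23.4, quantified transcripts with kallisto 0.48.0 and merged them to genes, and deposited estimated counts per gene, unnormalized and per library. All deposited values were whole, so rounding changed none. The submitters' notes name mm10 and GRCm39, and which was the quantified reference was not settled here. RNA was reverse transcribed from oligo-dT, by Smart-seq2 for the RNA-seq and by SLIM-seq, in which RNA is not fragmented before IP, for the m6A libraries. A gene's value is thus one for the whole transcript and locates no m6A site. PCR copies are not independent molecules.

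Each experiment was fitted on its own with edgeR 4.0.16 in R 4.3.3 (TMM, filterByExpr, glmQLFit, glmQLFTest), and p-values were adjusted by Benjamini-Hochberg over all genes tested. RNA-seq calls needed a fold of 1.5 and an adjusted p under 0.05, m6A calls an adjusted p under 0.05. SE is the log2 fold change over the square root of F. The biological coefficient of variation was 19.1% and 21.9%. The fits were tested on simulated data first. Family medians were set beside other genes in the same decile of average log2 CPM or transcript length. Fingers, KRAB and SCAN patterns and linkers were searched in translated GENCODE M21 coding sequences (GRCm38). The alternatives were DESeq2 1.42.0, DESeq2's size factors, library size only, upper quartile, no count filter, a replicate block and leaving out each library.

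Genes named were the 8 largest changes in each direction, with no overlap of the groups and a minimum average log2 CPM of 2, those called in both experiments, the 5 highest per length and 22 with known roles. Members and lists were chosen with earlier results of these data known. Python 3.11.15 with matplotlib 3.10.9 drew the figures. The linker of a further gene is not reported here.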

Additional observations from a re-analysis of the deposited data

How the results depend on the processing

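Directions of the family and KRAB medians in IP over input held under every alternative run. With library size only the medians were 0.43 and 0.61 and 7 genes were lower in IP. With upper-quartile factors the family median was 0.39. The median of all genes moved as well, from 0.06 to 0.21 and 0.18, and the family stood 0.21, 0.22 and 0.21 above it. Leaving out 1 library gave family medians of 0.15 to 0.35, KRAB medians of 0.24 to 0.53, 7 to 40 genes higher and 5 to 13 lower. In the RNA-seq the same gave family medians of -0.078 to 0.041, differences from genes of like level of -0.098 to 0.0061 and KRAB medians of -0.20 to -0.053. The replicate block called 42 genes higher and 23 lower in IP, with 1783 and 1755 of all genes, and 17 and 20 in the RNA-seq. The m6A replicates share only a number, and their same-numbered libraries deviated together with r = 0.205. With 2 libraries a group, the opposite pairing must give the same value with its sign turned, -0.205. That r therefore cannot show whether the numbers pair libraries. Same-numbered RNA-seq libraries had r of -0.072 to 0.034. DESeq2 called 25 and 15 in m6A and 19 and 25 in RNA-seq. Upper-quartile factors called 36 higher and 9 lower in m6A and 17 and 29 in RNA-seq, and library size only 23 and 7 and 20 and 19. The cause of these moves was not tested.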
